A study of Mus musculus with 1073 samples.

Results

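The haematopoietic progenitor/colony forming cells (HPC) of the mouse yolk sac at E10.5 were described here by single-cell RNA-seq. The GEO labels call these cells EMP, for erythro-myeloid progenitors. They were sorted from untreated C57BL/6 yolk sacs, dissociated with collagenase and dispase, as cells negative for TER119 and CDH5, positive for CD45 and low for CD41. The members were chosen by that label alone, and 87 HPCs passed the filter of the authors out of 92 captured, among 926 filtered cells in the series. They were compared with the 61 endothelial cells (Endo, CDH5+ and negative for TER119, CD45 and CD41), the 73 megakaryocytes (Mk, CD41 high and negative for TER119, CDH5 and CD45) and the 25 macrophages (Mac, CD45+ and negative for TER119, CDH5 and CD41) sorted at the same stage from the same strain without treatment. Each population was captured on the Fluidigm C1 system, which isolates cells in a microfluidic chip, and each was sequenced in a lane of its own on 1 flow cell, so lane, capture and population cannot be told apart. The labels do not say which embryo a cell came from. Each population is therefore 1 sample, no test between populations was possible, and every difference below is a description of these cells.

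Erythro-myeloid progenitors arise from haemogenic endothelium of the yolk sac and colonise the fetal liver, where they give rise to erythroid, megakaryocytic, granulocytic, mast and macrophage progeny before stem cells take over. RUNX1 is needed for their emergence and MYB for their expansion, and the receptor KIT and the surface protein CD34 mark the immature cells. Genes of several lineages are often transcribed at a low level in multipotent progenitors.

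The values are deposited CPM, which are read counts scaled by a size factor per cell, and a level is the mean CPM over the cells of a population. A gene was found in a cell when it had at least 1 count. Ratios are log2 of (mean CPM + 1) in HPCs over that in the other population, and a gene was taken as higher or lower at a fold of 2. It was compared when it reached 50 CPM and 25% of cells in either population. Exact binomial (Clopper-Pearson) intervals at 95% are given for shares. They cover counting error only, as do limits from counts of 0, and reads without molecular identifiers are not independent molecules. The sort itself used the proteins of *Ptprc* (CD45), *Itga2b* (CD41) and *Cdh5*, so differences in these 3 genes follow from the gate.

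The HPC profile was led by genes of granulocyte precursors and mast cells. Upstream sequences are shown first for *Mpo*, *Cpa3*, *Hdc* and *Prtn3*, the 4 granule and mast cell genes among the 6 that stood furthest above all 3 other populations, so that the transcripts described below can be read beside their start regions. They are RefSeq promoters on GRCm38.p6, given as the 250 bases before the annotated start in the direction of transcription, at chr11:87793534-87793783 (+) for *Mpo*, chr3:20242182-20242431 (-) for *Cpa3*, chr2:126618679-126618928 (-) for *Hdc* and chr10:79879417-79879666 (+) for *Prtn3*. Capitals mark matches to 4 motifs, each searched on both strands. The letters searched for RUNX factors were TGTGGT. For GATA factors the search used the letters GATAAG. For the myeloid factor PU.1 they were GAGGAA. For C/EBP factors the looser letters TTNCNNAA were taken.
Mpo: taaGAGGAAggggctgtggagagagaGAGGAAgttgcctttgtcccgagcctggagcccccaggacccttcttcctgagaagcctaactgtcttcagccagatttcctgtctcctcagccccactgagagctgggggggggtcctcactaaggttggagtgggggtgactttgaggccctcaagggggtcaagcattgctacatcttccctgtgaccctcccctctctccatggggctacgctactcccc
Cpa3: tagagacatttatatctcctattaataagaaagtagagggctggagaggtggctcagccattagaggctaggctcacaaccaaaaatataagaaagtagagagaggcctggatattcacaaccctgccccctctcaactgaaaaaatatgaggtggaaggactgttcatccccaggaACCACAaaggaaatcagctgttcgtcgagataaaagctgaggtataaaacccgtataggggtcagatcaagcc
Hdc: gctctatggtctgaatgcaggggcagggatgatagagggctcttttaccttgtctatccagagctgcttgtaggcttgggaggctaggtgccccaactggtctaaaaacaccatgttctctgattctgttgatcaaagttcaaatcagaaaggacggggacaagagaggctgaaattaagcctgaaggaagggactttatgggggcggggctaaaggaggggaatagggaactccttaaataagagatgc
Prtn3: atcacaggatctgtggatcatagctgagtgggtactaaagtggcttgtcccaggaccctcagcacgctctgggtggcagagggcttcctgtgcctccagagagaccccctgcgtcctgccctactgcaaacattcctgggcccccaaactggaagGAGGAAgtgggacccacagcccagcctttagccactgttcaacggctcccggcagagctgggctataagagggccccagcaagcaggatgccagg
The PU.1-type letters were found in 2 places upstream of *Mpo* and in 1 place upstream of *Prtn3*, the RUNX-type letters in 1 place upstream of *Cpa3*, and none of the 4 motifs in the *Hdc* window. These letters are common. GAGGAA lay in 22.5% of the 10084 promoters of genes in the table and in 20.5% of the 39 genes with a promoter among those above all 3 populations, and TGTGGT in 10.7% and 17.9% (7 of 39). The C/EBP letters were found in 28.5% and 33.3%, and the GATA letters in 4.59% and 5.13%. A match is a description of the sequence only. The RefSeq start lay at 203 bases from the gene start of GENCODE M21 for *Mpo*, at 0 for *Cpa3*, at 621 for *Hdc* and at 5191 for *Prtn3*, so that the windows of *Mpo*, *Hdc* and *Prtn3* lie at least in part inside the gene as GENCODE draws it.

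The libraries were of similar depth apart from those of Mac. HPCs held 483830 to 4339557 counts (median 1609583), against medians of 1943904 in Endo, 1668712 in Mk and 3422342 in Mac. A median HPC nevertheless held more genes than a median cell of the others, with 9165 genes (6372 to 10710) against 6412 in Endo, 7763 in Mk and 7826 in Mac. After thinning each cell to 800000 counts, with 13 HPCs, 4 Endo, 5 Mk and 0 Mac left out as shallower, the medians were 8834.5 genes in HPCs, 5719 in Endo, 7187 in Mk and 6819 in Mac. The share of counts on mitochondrial genes had a median of 2.59% in HPCs, where it ran from 1.47% to 49.9% and passed 10% in 2 cells (2.30%). It passed 10% in 14 Endo (23.0%), 12 Mk (16.4%) and 7 Mac (28%).

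**Figure D1:**
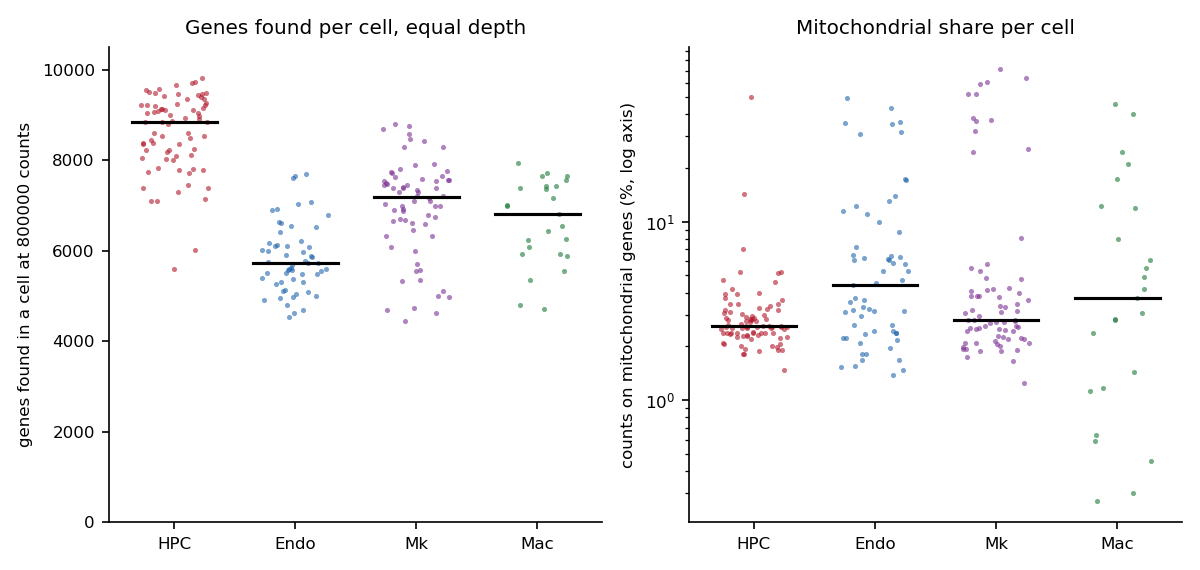
Left, genes found in each cell after thinning to 800000 counts; right, share of counts on mitochondrial genes on a log axis. Points are cells and bars are medians, which were 8834.5 genes in HPCs against 5719 in Endo, and 2.59% mitochondrial counts in HPCs against 4.43% in Endo.

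Some HPCs need to be described before the results. Transcripts of both sexes, at 5 counts or more of *Xist* and of Y-linked genes, were found together in 19 HPCs (21.8%, 13.7% to 32.0%), with *Xist* alone in 32 and Y-linked genes alone in 33, so more than 1 embryo contributed. The same held for 26 Endo (42.6%), 8 Mk (10.96%) and 6 Mac (24%). At 100 counts or more of each, 10 HPCs (11.5%) held both, against 3 Endo (4.92%), 2 Mk (2.74%) and 2 Mac (8%), so the order of the populations changed with the minimum. Whether such captures held more than 1 cell was not tested. Index sequences were reused between lanes, and those of 57 of 61 Endo, 66 of 73 Mk and 21 of 25 Mac also marked an HPC. In 8 HPCs (9.20%) there were under 10 counts of both *Kit* and *Myb*. In 1 of these the 22 endothelial genes reached 9574 CPM in all with 20 genes found, including *Stab2* at 2381 CPM, *Lyve1* at 3315 CPM and *Cdh5* at 662 CPM, while *Kit* and *Myb* had no count and *Runx1* was at 0.27 CPM. That cell went against its label, and results were recomputed without it and without all 8.

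The 6 markers given for the population were found in most of the cells. *Runx1* (chr16:92601466-92826149, GRCm38), the regulator of blood emergence, had a count in all 87 HPCs (95.8% to 100%), with a lowest level of 0.27, a median of 195 and a highest of 663 CPM. *Kit* (chr5:75574916-75656722) was found in 92.0% of HPCs (84.1% to 96.7%) with a median of 135.4 CPM, and *Myb* (chr10:21124935-21160984) in 94.3% (87.1% to 98.1%) with a median of 104.7 CPM. *Serpinb1a*, an inhibitor of granule proteases, was found in 93.1% with a median of 101.6 CPM.

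The other 2 markers were less even. *Ptprc* was found in 95.4% of HPCs, with a median of 181 and a highest level of 2795 CPM. *Igsf6*, an immunoglobulin superfamily member of myeloid cells, was found in 69.0% (58.1% to 78.5%), with a median of 12.8 and a highest level of 1685 CPM. Both had a higher mean in Mac, at 579 CPM for *Ptprc* and 193 CPM for *Igsf6*, than in HPCs, at 294 and 116.1 CPM. The Mac median was higher for *Ptprc*, at 373 CPM, but lower for *Igsf6*, at 1.39 CPM.

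Against Endo all 6 markers were higher in HPCs, against Mk 5 of 6 were, and against Mac 2 of 6 were (*Myb* and *Serpinb1a*). The markers were chosen with earlier results of these data known. For *Ptprc* the difference from Endo and Mk follows from the gate, so these counts are a description only. Over all genes compared, 19.3% of 5313 were higher in HPCs than in Endo, 7.71% of 4589 than in Mk and 19.7% of 4777 than in Mac. *Runx1* was at 199 CPM in Mk and 125.03 CPM in Mac, within the fold of 2 from the 221 CPM of HPCs, whereas no Endo had a count (0 of 61 cells; with 3 cells taken as the limit for a count of 0, the share was at most 4.92%). *Kit* was at 162 CPM in HPCs and 84.0 CPM in Mac, but there 9 of 25 cells held it and a single cell reached 1877 CPM, with a Mac median of 0.

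**Figure D2:**
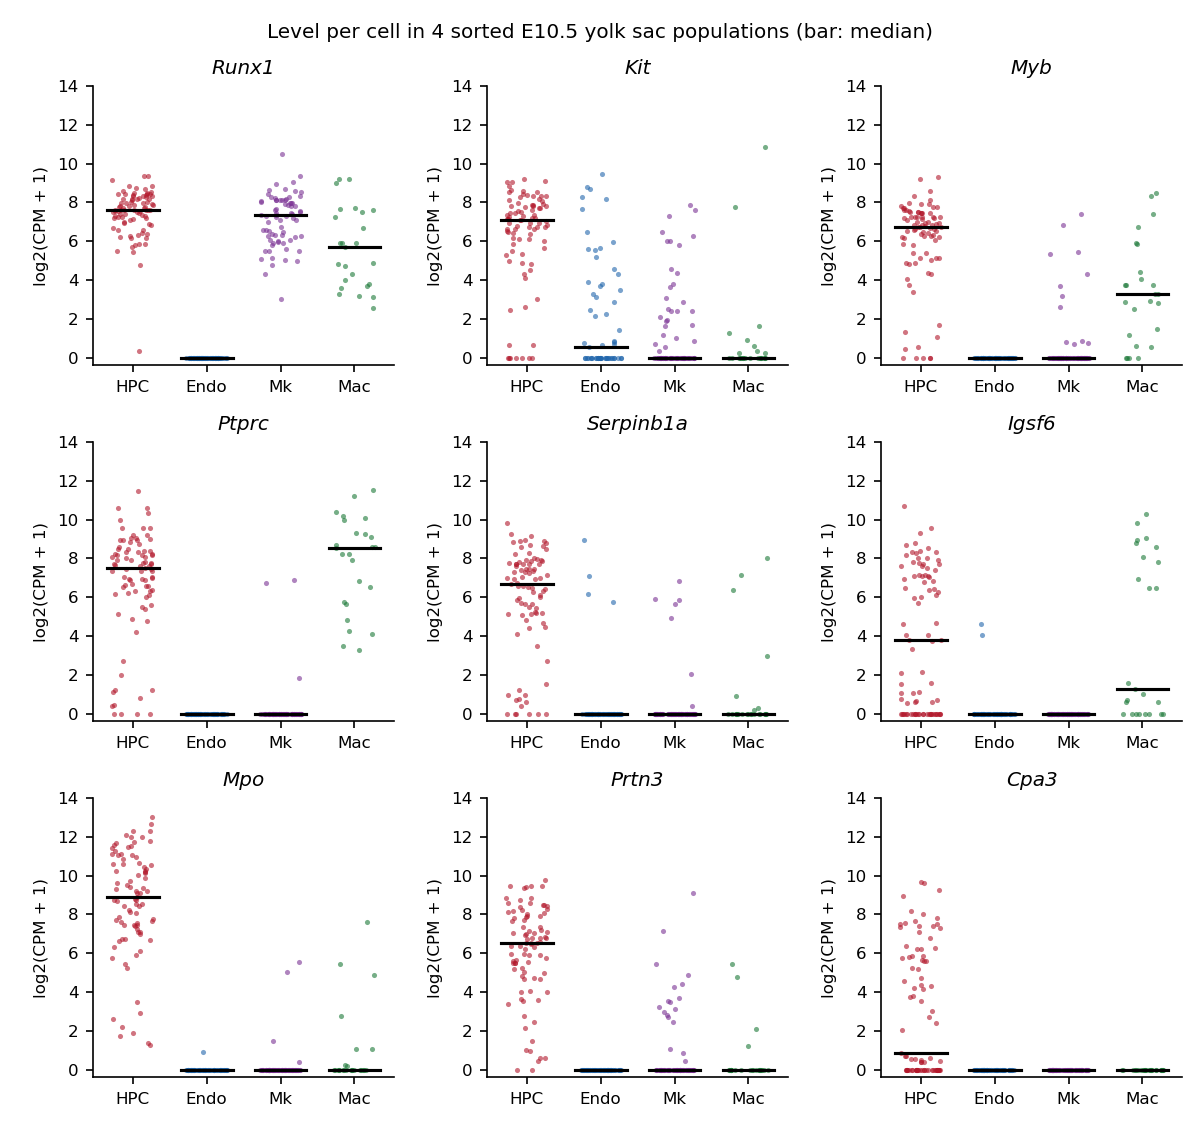
Level of the 6 markers and of *Mpo*, *Prtn3* and *Cpa3* in each cell as log2(CPM + 1). Points are cells and bars are medians; *Runx1* lies at like levels in HPCs and Mk (median 195 and 160 CPM), while *Mpo* is near 0 in most cells outside the HPCs.

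In all, 61 genes (0.968% of 6303) were higher in HPCs than in each of the 3 other populations. They were led by *Mpo*, which encodes myeloperoxidase of primary granules. Genes of granulocyte and monocyte granules, genes of mast cells and basophils, and several regulators of blood progenitors were among them.

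*Mpo* (chr11:87793581-87804413, ENSMUSG00000009350) stood furthest apart. All 87 HPCs had at least 1 count of it, with a lowest level of 1.44, a median of 483 and a highest of 8420 CPM, and its mean was 1202 CPM. In the 8 HPCs with under 10 counts of *Kit* and of *Myb* its median was 3.13 CPM, so that share includes cells with traces only. It was found in 1 Endo (1.64%), in 4 Mk (5.48%) with a highest level of 45.2 CPM and in 8 Mac (32%) with a highest level of 198 CPM. The mean was 1186 times that of Endo, 576 times that of Mk and 99.4 times that of Mac, each on the CPM + 1 scale. Medians in these 3 populations were 0, although single Mac reached levels seen in many HPCs.

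Other granule genes followed it. *Prtn3*, which encodes proteinase 3, was found in 97.7% of HPCs, with a median of 92.0 and a highest level of 875 CPM. It was found in 0 Endo, 24.7% of Mk and 16% of Mac, and its mean of 165 CPM compared with 11.8 CPM in Mk and 2.92 CPM in Mac. In Mk 1 cell reached 540 CPM, and without it the mean was 4.49 CPM. *Hp*, which encodes the haemoglobin-binding protein haptoglobin, was less even: 56.3% of HPCs held it, with a median of 0.54 and a highest level of 704 CPM, against 0 Endo, 0 Mk and 3 Mac. *Serpinb1a* was at 154.9 CPM on average in HPCs, 12.4 in Endo, 4.28 in Mk and 19.8 in Mac. *Srgn*, the granule proteoglycan serglycin, was found in all HPCs at a mean of 240 CPM and was higher than in each of the others, by log2 ratios of 1.93, 1.18 and 1.68.

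Of the 16 genes in the granule list 12 were in the filtered table and 9 were compared. Against Endo 8 were higher and 0 lower (median ratio 6.40, against -0.14 over all genes), against Mk again 8 and 0 (4.14, against -0.01), and against Mac 5 and 0 (1.68, against -0.05). The shares of all genes that were higher were 19.3%, 7.71% and 19.7% in the same order. The list was chosen with earlier results of these data known, and it holds *Igsf6*, a marker given for the population. These counts are therefore a description only. The exceptions against Mac were *Lyz2* (lysozyme, ratio -0.71), *Plac8* (0.38), *Igsf6* (-0.73) and the chaperone gene *Calr* (-0.41), all of which macrophages transcribe as well. *Elane*, which encodes neutrophil elastase and lies beside *Prtn3* on chromosome 10, was found in 19 HPCs (21.8%, 13.7% to 32.0%) with a highest level of 218 CPM, in 0 Endo, 0 Mk and 1 Mac. *Ms4a3*, a gene of granulocyte-monocyte progenitors, was found in 40.2% of HPCs, and *Nkg7*, a granule membrane gene of cytotoxic cells, in 57.5%.

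Mast cell and basophil genes were the other group. *Cpa3* (chr3:20215620-20242181), which encodes the carboxypeptidase of mast cell granules, was found in 54 HPCs (62.1%, 51.0% to 72.3%) with a median of 0.84, a highest level of 822 and a mean of 69.3 CPM. No count of it fell in any Endo, Mk or Mac. On the CPM + 1 scale its log2 ratio was 6.14 against each of them. A second measure was the share of *Cpa3* in the counts summed over all cells of a group. With 3 counts put in place of 0, the HPC share was 4478 times that of Endo, 4865 times that of Mk and 2884 times that of Mac. These multiples rest on that limit and cannot be set beside the CPM + 1 multiples given for *Mpo*. *Hdc*, which encodes the enzyme that makes histamine, was found in 67.8% of HPCs with a median of 0.72 and a highest level of 1102 CPM, in 1 Endo, 0 Mk and 7 Mac, where its mean was 1.42 CPM. Most of the reads of both genes came from a minority of HPCs, as the medians under 1 CPM show.

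Only 4 of the 10 genes in the mast list were in the filtered table. *Cpa3* and *Hdc* were higher than in Endo, Mk and Mac, while *Rab27b*, a GTPase gene of secretory granules that platelets use too, was at 15.7 CPM in HPCs and 830 CPM in Mk (ratio -5.63). *Mitf*, a transcription factor gene of mast cells and melanocytes, was found in 18.4% of HPCs at a mean of 5.62 CPM and did not reach the level for comparison.

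Genes of other functions shared the pattern. *Tespa1*, which encodes a signalling adaptor known from thymocytes, was found in 88.5% of HPCs with a median of 24.2 and a highest level of 446 CPM, in 0 Endo, 0 Mk and 2 Mac. *Slc22a3*, which encodes an organic cation transporter, was found in 79.3% of HPCs with a median of 40.6 CPM, in 0 Endo, 7 Mk and 0 Mac. *Gria3*, a glutamate receptor subunit gene, was found in 81.6% of HPCs with a median of 40.0 CPM and in 0 Endo, 0 Mk and 10 Mac.

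*Hmga2*, which encodes a chromatin protein of fetal stem and progenitor cells, was one of the higher genes of this set in level. It was found in 96.6% of HPCs with a median of 407 and a highest level of 1554 CPM, and its mean of 504 CPM compared with 142.1 in Endo, 67.7 in Mac and 5.35 in Mk. The nearest population was Endo, with a ratio of 1.82. *Tox*, an HMG-box factor gene, was found in 72.4% of HPCs at a mean of 93.4 CPM and had a smallest ratio of 3.47.

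The remaining named genes had smallest ratios between 1.67 and 3.09. They were *Perp* (a p53 target gene of cell junctions), *Emilin2* (an extracellular matrix gene), *Parp8*, *Rpp40* (an RNase P subunit gene), *Acy1* (aminoacylase), *Znrf3* (a ligase gene that limits Wnt receptors), *Zfp36l2* (an mRNA decay factor gene) and *Slc25a12* (the mitochondrial aspartate-glutamate carrier gene). All the genes named from this set kept a positive ratio against all 3 populations when cells were scaled to their own totals, when logs were averaged, and when the 8 HPCs were left out. Without those 8 cells 77 genes were above all 3, of which 60 were among the 61. Of the 61 genes 48 stayed above all 3 with a pseudocount of 10 CPM, and 43 when cells with over 10% mitochondrial counts were left out.

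**Figure D3:**
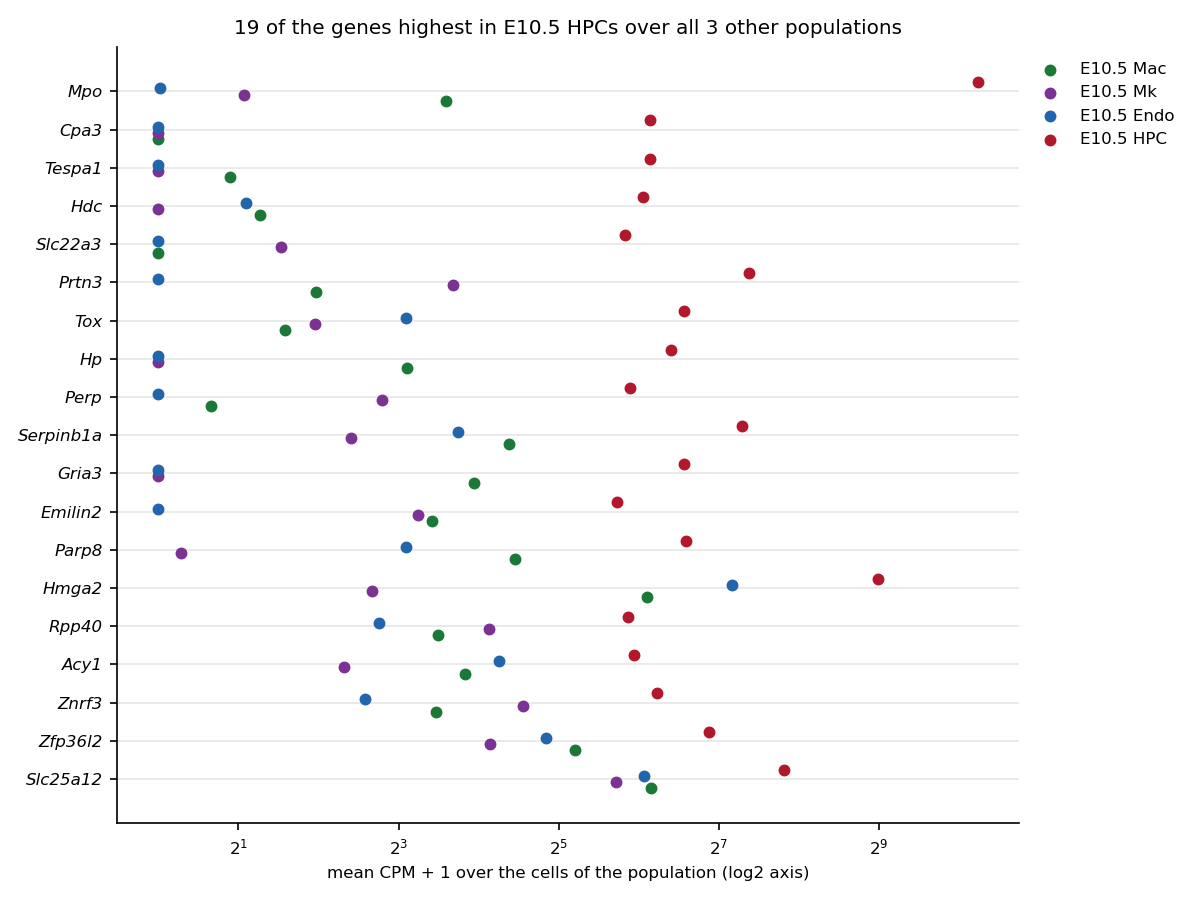
Mean CPM + 1 on a log2 axis in the 4 populations for 19 of the genes that stood furthest above all 3 others, ordered from *Mpo* at the top by the smaller of their ratios. The HPC point lies to the right in every row, with *Mpo* at 1202 CPM and *Slc22a3* at 55.5 CPM.

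Transcription factor genes of blood progenitors were found broadly in HPCs. The 22 genes of that list were found in 88.4% of HPCs on average, and a median HPC held 20 of them (12 to 22). The mean share was 69.5% in Mk, 65.8% in Mac and 42.4% in Endo. HPCs also held more genes per cell than the others, as given above. Nucleolar genes, for instance, were found on average in 97.3% of HPCs, 86.6% of Mk, 90.8% of Mac and 59.5% of Endo. The part of this in the shares of the factor list was not tested. Against Endo 11 of 16 compared were higher in HPCs and 0 lower, with a median ratio of 2.02. Against Mk 7 of 18 were higher and 4 lower (median -0.01), beside 14.7% of all genes that were lower in HPCs than in Mk. Against Mac 8 of 16 were higher and 1 lower (median 1.04). Among all genes compared 19.3% were higher in HPCs than in Endo, 7.71% than in Mk and 19.7% than in Mac.

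The genes divided by the population they were shared with. *Ikzf1*, the lymphoid and myeloid factor Ikaros, was found in 98.9% of HPCs with a median of 138.9 CPM and in 92% of Mac, but in 3 Mk and 0 Endo. *Ikzf2*, its relative Helios, had a median of 177 CPM in HPCs and means of 228 CPM there, 81.0 in Mk, 10.6 in Mac and 0.026 in Endo. *Gfi1b*, a repressor gene of the erythroid and megakaryocytic lineages, was found in 89.7% of HPCs with a median of 71.2 CPM, and its mean of 140 CPM compared with 393 CPM in Mk and 15.9 CPM in Mac. *Nfe2*, which also serves megakaryocytes, was at 94.7 CPM in HPCs, 151.7 in Mk and under 1 CPM in Endo and Mac.

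*Gata2*, a factor gene of stem, progenitor and mast cells, and *Bcl11a*, the repressor gene of fetal globins, were above all 3 populations. *Gata2* was at 153.9 CPM in HPCs with a median of 78.9, against 62.7 in Endo, 44.6 in Mk and 6.45 in Mac. *Bcl11a* was at 83.1 CPM with a median of 45.1, against 0.31, 3.30 and 33.9 CPM. *Meis1*, a homeobox gene of stem cells and megakaryocytes, was found in all HPCs at a median of 363 CPM, and its mean of 413 CPM lay between that of Endo (136.4 CPM) and that of Mk (746 CPM). *Tal1* was lower than in Mk, at 34.9 against 217 CPM, and *Cbfb*, which encodes the partner of RUNX1, was lower than in Mac, at 55.4 against 305 CPM.

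*Gfi1*, the paralogue of *Gfi1b* that acts in emergence from endothelium and in granulocytes, was rare: 9 HPCs (10.3%, 4.84% to 18.7%) held it, with 0 of the Endo, Mk and Mac. No other gene of the list was found in so few HPCs.

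Genes known from haematopoietic stem cells gave a mixed picture. *Cd34* was found in 97.7% of HPCs with a median of 346 CPM and was at 510 CPM on average in Endo, 403 in HPCs, 85.4 in Mac and 0.83 in Mk. *Angpt1*, the ligand gene of the receptor TEK, was found in 92.0% of HPCs at a mean of 139.5 CPM and in 95.9% of Mk at 115.2 CPM, against 0 Endo and 3 Mac. *Mecom*, which encodes the stem cell factor EVI1, was lower than in Endo, at 7.94 against 181 CPM, and was found in 29.9% of HPCs. *Hlf*, a factor gene that marks stem cells and their precursors, was found in 35 HPCs (40.2%, 29.9% to 51.3%) with a highest level of 448 CPM, and in 0 Endo, 1 Mk and 0 Mac.

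*Procr*, *Hoxa10* and *Ly6a* (SCA-1) were found in 9.20%, 6.90% and 5.75% of HPCs. *Hoxa9* was found in 28.7%. Over the 12 genes of the list the average share was 42.7% in HPCs and 40.4% in Endo. Against Endo 1 gene was higher and 2 lower of 5 compared, against Mk 1 and 2 of 4, and against Mac 2 and 0 of 2. Among all genes compared 19.3% were higher and 30.2% lower against Endo, 7.71% and 14.7% against Mk, and 19.7% and 27.1% against Mac.

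Receptor genes for growth factors were shared in part with the other lineages. *Csf3r*, the granulocyte colony-stimulating factor receptor gene, was found in 87.4% of HPCs with a median of 86.5 CPM, against 3 Endo and 3 Mk. In Mac its mean of 93.6 CPM was near that of HPCs (103.3 CPM), but the Mac median was 3.07 CPM and 1 cell reached 1712 CPM. *Csf1r*, the macrophage colony-stimulating factor receptor gene, was found in 69.0% of HPCs with a median of 1.64 and a highest level of 1953 CPM, against a Mac median of 621 CPM.

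*Flt3*, a receptor gene of multipotent and lymphoid progenitors, was found in 34.5% of HPCs (24.6% to 45.4%), in 0 Endo, 0 Mk and 2 Mac. *Epor*, the erythropoietin receptor gene, was found in 25.3% of HPCs at 3.62 CPM and in 69.9% of Mk at 25.0 CPM. Of the 16 receptors 6 were higher and 2 lower of 8 compared with Endo. Against Mk these were 4 and 2 of 6, and against Mac 1 and 5 of 10. The shares of all genes were 19.3% and 30.2%, 7.71% and 14.7%, and 19.7% and 27.1% in the same order. Of the receptors lower than in Mk, *Csf2rb*, the shared receptor subunit gene of IL-3 and GM-CSF, was at 84.9 CPM in HPCs and 215 CPM in Mk. It was found in 90.8% of HPCs and 37.0% of Mk. In Mk 91.4% of its summed CPM came from 1 cell, the mean without that cell was 18.7 CPM and the median was 0. Its direction turned when cells were scaled to their own totals (ratio 0.50).

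**Figure D4:**
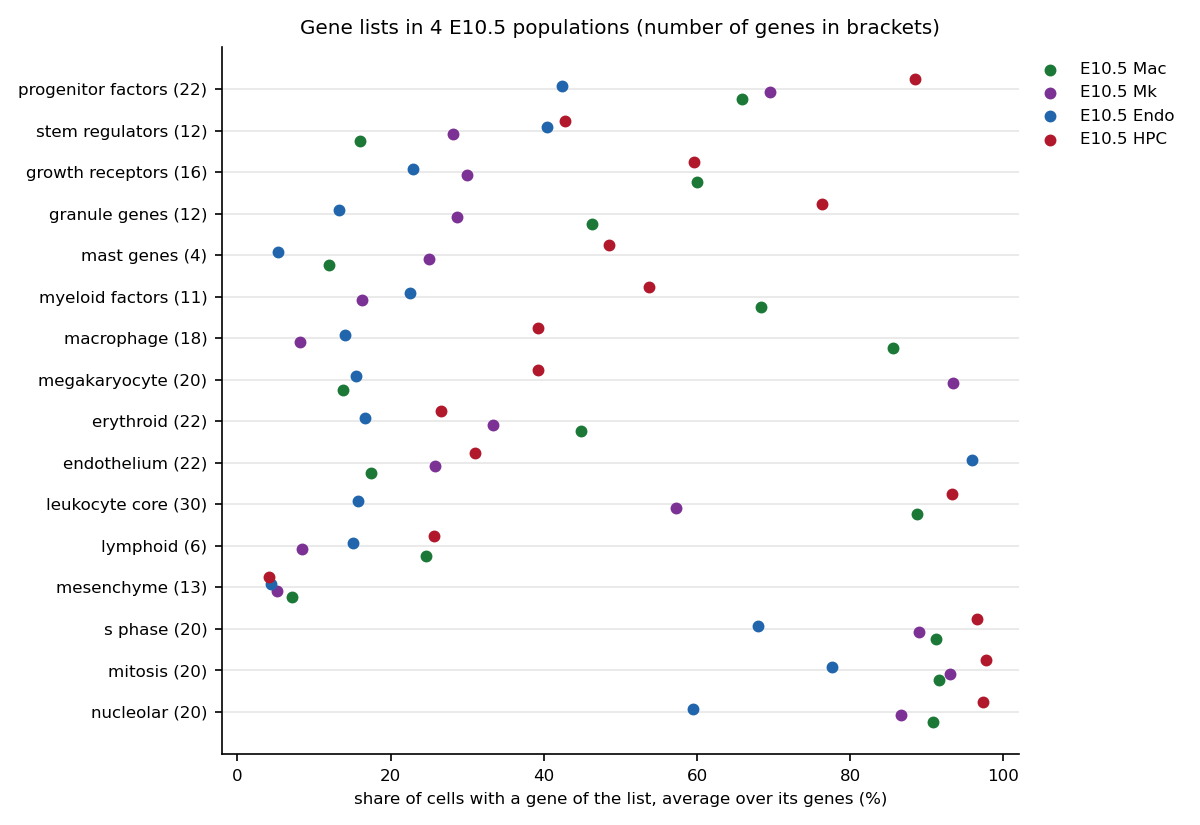
Share of cells with a gene, averaged over the genes of each list, in the 4 populations, with the number of genes in brackets. HPC points lie to the right for lists that include progenitor factors (88.4%), granule genes (76.3%), mast genes (48.6%), S phase genes (96.6%) and nucleolar genes (97.3%). For the macrophage genes they lie between Mac (85.6%) and Endo (14.0%).

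The comparison with Endo sets the progenitors beside endothelial cells sorted from the yolk sac on the same day. Leukocyte surface, signalling and actin genes were higher in HPCs, and the endothelial genes were lower. In all 1026 genes were higher in HPCs and 1603 lower (30.2% of 5313), so that 39.0% of these were higher. With cells scaled to their own totals the numbers were 1423 and 1199, and 54.3% were higher.

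After *Mpo* the named higher genes were *Rac2*, *Plek*, *Coro1a*, *Rgs18* and *Ptprc*, for which 0 of 61 Endo had a count. *Rac2*, the GTPase of blood cells, was found in all HPCs with a median of 880 and a highest level of 1922 CPM. *Plek*, the platelet and leukocyte protein pleckstrin, was at 747 CPM on average, *Coro1a*, an actin-binding protein of leukocytes, at 504 CPM and *Rgs18*, a regulator of G-protein signalling, at 391 CPM. In the leukocyte list 22 of 25 genes compared were higher and 0 lower (median ratio 6.36), beside 19.3% of all genes that were higher than in Endo. The 3 that did not reach the fold were *Arhgdib*, *Cd44* and *Ptpre*, with Endo means of 741, 313 and 84.5 CPM. Endo medians were 229.7 CPM for *Arhgdib* and 71.2 CPM for *Cd44*, but 0.24 CPM for *Ptpre*. The highest Endo cell held 56.7% of the summed CPM of *Ptpre*, and without that cell the mean was 37.2 CPM.

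All 21 endothelial genes compared were lower in HPCs (median ratio -5.94). *Clec14a*, an endothelial surface lectin gene, was at 944 CPM in Endo and in 5 HPCs with a mean of 1.42 CPM. *Igfbp3*, a binding protein gene of insulin-like growth factors, was found in 86.9% of Endo at 364 CPM and in 0 HPCs (up to 3.45% by the same limit of 3 cells). *Edil3*, *Oit3*, *Dysf* and *Gja5*, the connexin gene of arteries, were at 288 to 694 CPM in Endo and in 2 to 4 HPCs each. Without its highest Endo cell the mean of *Edil3* was 50.4 CPM, and its Endo median was 1.76 CPM.

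Low traces of endothelial genes were nevertheless common. *Cdh5*, whose protein was gated out, was found in 36 HPCs (41.4%) with a median of 0, a highest level of 662 and a mean of 13.0 CPM, against 1 Mk and 2 Mac. The highest level was that of the HPC that held 20 endothelial genes, and without it the mean was 5.47 CPM. *Pecam1* was found in 86.2% of HPCs at a mean of 49.5 CPM, as in Mk (78.1%, 46.1 CPM), and *Tek*, the angiopoietin receptor gene, in 62.1% at 41.8 CPM. *Sox17*, an arterial factor gene, was found in 0 HPCs and *Cldn5*, a tight junction gene, in 1. Without the HPC that held 20 endothelial genes, the highest sum of the 22 in any HPC of the other 79 was 1498 CPM, above the lowest Endo (230 CPM) and under the Endo median (15789 CPM).

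Nucleolar genes were also higher than in Endo, with 16 of 16 compared past the fold (median ratio 2.01), as *Ncl* (nucleolin) at 2433 against 606 CPM and *Dkc1* (dyskerin) at 659 against 55.7 CPM. Of the S phase genes 9 of 17 were higher and 0 lower (median 1.09), and of the mitosis genes 4 of 20 and 0 (median 0.24). Among all genes compared 19.3% were higher than in Endo, so the mitosis genes were near that share. HPCs also held more genes per cell than Endo, as given above, and its part in these differences was not tested.

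The comparison with Mk sets HPCs beside a differentiated lineage, and here fewest genes differed. In all 354 genes were higher and 675 lower, or 34.4% higher, and with cells scaled to their own totals 515 and 433, or 54.3% higher. Platelet genes were lower in HPCs and leukocyte genes higher. Means of the 7 macrophage genes compared were higher too, but unevenly over the cells. The sum of the 18 macrophage genes had a median of 136.3 CPM in HPCs (highest 16029) and 54.6 CPM in Mk (highest 518). Its median was 3523 CPM in the 8 HPCs with under 10 counts of *Kit* and of *Myb*, and 118.3 CPM in the other 79.

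All 18 of the megakaryocyte genes compared were lower in HPCs (median ratio -5.69), beside 14.7% of all genes compared. *Pf4*, platelet factor 4, was at 4902 CPM in Mk with a lowest cell of 132.8 CPM, and in HPCs it was found in 52.9% of cells with a median of 0.56 and a highest level of 171 CPM, against 3.28% of Endo. *Thbs1* (thrombospondin), *Tubb1* (the platelet tubulin gene), *Alox12* (platelet lipoxygenase), *Trpc6* (a cation channel gene) and *Ppbp* (a platelet chemokine gene) were at 175 to 3569 CPM in Mk and were found in 2 to 6 HPCs each.

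Some genes of the list were nevertheless widespread in HPCs at lower levels. *P2rx1*, an ATP receptor gene of platelets, was found in 95.4% of HPCs at 94.1 CPM (Mk 418 CPM), *Itgb3*, the integrin partner of CD41, in 82.8% at 49.8 CPM (Mk 1466 CPM) and *Itga2b* in 73.6% at 26.2 CPM (Mk 603 CPM).

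The higher genes after *Mpo* were *Cd53*, *Lsp1*, *Cd34*, *Emb* and *Igsf6*. *Cd53*, a leukocyte tetraspanin gene, was found in 85.1% of HPCs with a median of 104.8 and a highest level of 1835 CPM and in 0 Mk, and *Lsp1*, an F-actin binding protein gene, in 85.1% with a median of 29.1 CPM and in 1 Mk. *Emb*, which encodes embigin, was at 282 CPM against 0.53 CPM. In the leukocyte list 14 of 25 compared were higher and 3 lower (median 1.35). The 3 lower genes were *Plek*, *Fermt3* (kindlin-3) and *Rgs18*, which serve platelets, at ratios of -2.66, -2.71 and -1.65. Of the S phase genes 0 of 17 passed the fold in either direction. Higher were 1 of 20 mitosis genes and 2 of 16 nucleolar genes, beside 7.71% of all genes that were higher than in Mk.

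The comparison with Mac sets HPCs beside the other CD45+ population. Of 14 macrophage genes compared 13 were lower in HPCs. Few genes of other lineages reached the level for comparison: 2 of 3 erythroid genes (*Car2* and *Gata1*), 2 of 3 megakaryocyte genes and both mast genes (*Cpa3* and *Hdc*) were higher, while *Pf4*, a platelet chemokine gene, was lower (-2.28). In all 940 genes were higher and 1296 lower (27.1% of 4777), or 42.0% higher, and with cells scaled to their own totals 1187 and 909, or 56.6% higher.

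None of the macrophage genes compared was higher in HPCs, and their median ratio was -2.99. *Cx3cr1*, the fractalkine receptor gene, was at 958 CPM in Mac with a lowest cell of 9.53 CPM, and in HPCs it was found in 63.2% with a median of 0.62 and a highest level of 2003 CPM. *C1qb*, a complement gene, was at 1124 CPM in Mac and in 43.7% of HPCs, with a median of 0 and a highest level of 2568 CPM. *Mrc1*, the mannose receptor gene, was at 3493 CPM in Mac, 265 CPM in HPCs and 2035 CPM in Endo. *Lyz2* was the member that did not pass the fold. The ratio of *Cd14*, a lipopolysaccharide receptor gene, was -4.26 and turned to 0.33 when cells with over 10% mitochondrial counts were left out.

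Factor genes of the macrophage lineage had lower means as well. *Irf8* was at 29.4 CPM in HPCs and 546 in Mac, *Maf* at 188 against 1832 CPM and *Cebpa*, the granulocyte and monocyte factor gene, at 3.84 against 60.6 CPM. The Mac mean without its highest cell was 188.2 CPM for *Irf8*, with a median of 31.4 CPM, and 18.3 CPM for *Cebpa*, with a median of 0. *Spi1*, which encodes PU.1, was found in 86.2% of HPCs with a median of 6.97 CPM, in all Mac at a mean of 41.2 CPM, in 27.4% of Mk and in 0 Endo. Over the myeloid factor list 0 of 5 compared were higher than in Mac and 3 lower (median -3.28). Against Endo these were 1 and 1 of 3, and against Mk 2 and 1 of 3. The shares of all genes were 19.7% and 27.1%, 19.3% and 30.2%, and 7.71% and 14.7% in the same order.

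The higher genes were *Tuba4a*, *Gata1*, *Mpo*, *Muc13*, *Cpa3* and *Tspan12*. *Tuba4a*, an alpha-tubulin gene, was found in 92.0% of HPCs with a median of 215 CPM and in 1 Mac, but was higher still in Mk, at 749 against 219 CPM. *Gata1*, the erythroid, megakaryocytic and mast cell factor gene, was found in 55 HPCs (63.2%, 52.2% to 73.3%) with a median of 2.16 and a highest level of 1135 CPM, in 2 Mac with a highest level of 0.69 CPM and in 72 of 73 Mk with a median of 401 CPM. *Muc13*, a transmembrane mucin gene, was at 90.2 CPM in HPCs, 151.3 in Mk and in 0 Mac.

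Genes furthest below Mac rested on single macrophages. For *Cttnbp2nl*, *Ugt1a7c*, *Kifc3*, *Nuak2* and *Stom*, 96.9% to 98.98% of the summed CPM came from 1 Mac cell each. Of the 1296 lower genes 791 (61.0%) had most of their Mac sum (over 50%) in 1 cell, against 168 of 1603 (10.48%) for Endo and 76 of 675 (11.3%) for Mk. Of the genes higher in HPCs this held for 0 to 3 genes in the 3 comparisons. Leukocyte genes were near those of Mac, with 4 of 26 compared higher and 9 lower (median -0.46), among the lower *Evi2a*, a membrane protein gene (-1.98, with a Mac mean of 388 CPM that was 159.7 CPM without its highest cell), and *Tyrobp* (-1.28), a signalling adaptor gene. Of the S phase genes 1 of 19 was higher and 3 lower, of the mitosis genes 5 of 20 and 4, and of the nucleolar genes 2 of 17 and 4. Each of the lower genes in these lists turned in direction when logs were averaged over cells. Among all genes compared 19.7% were higher than in Mac and 27.1% lower.

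Other lists held few genes that were found in most HPCs. At least 50% of HPCs held 4 of 22 erythroid genes, 0 of 13 mesenchymal genes, 1 of 3 visceral endoderm genes and 1 of 6 early lymphoid genes in the table. The summed erythroid list had a median of 595 CPM in HPCs, 407 in Endo, 1416 in Mk and 121.8 in Mac, and its genes were found on average in 26.6% of HPCs and 44.9% of Mac. Mac libraries were deeper, with a median of 3422342 counts against 1609583 in HPCs. The part of depth in these shares was not tested. Globin genes were found in 2.30% (*Hba-x*) to 46.0% (*Hbb-bt*) of HPCs at means of at most 8.08 CPM, while the embryonic *Hbb-y* and *Hbb-bh1* were found in 25 of 25 Mac at 17.8 and 8.23 CPM and *Hbb-bh1* in 79.5% of Mk at 315 CPM. *Klf1*, the erythroid factor gene, was found in 26.4% of HPCs at 4.80 CPM. *Car2* (carbonic anhydrase) and *Tfrc* (transferrin receptor) were found in 96.6% and 85.1% of HPCs. Over the erythroid list 2 were higher and 2 lower of 5 compared with Endo, 0 and 3 of 4 with Mk, and 2 and 0 of 3 with Mac. The shares of all genes were 19.3% and 30.2%, 7.71% and 14.7%, and 19.7% and 27.1% in the same order.

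The 13 mesenchymal genes were found in 4.16% of HPCs on average, and none reached the level for comparison. *Col1a1* and *Col1a2* were found in 1 HPC each. Among the early lymphoid genes *Cd79b*, a B cell receptor chain gene, was found in 93.1% of HPCs at a mean of 85.3 CPM and in 92% of Mac at 126.4 CPM, and was the single gene compared in that list (ratios 0.60, 1.81 and -0.56). *Il7r*, the interleukin-7 receptor gene, was found in 18.4% of HPCs at 5.65 CPM. Of the visceral endoderm genes *Apoa1* was found in 3 HPCs, *Ttr* in 0 and *Trf* (transferrin) in 65.5% at 5.97 CPM, with a ratio of -4.34 over Mac.

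Mitochondrial genes were among those lowest in HPCs. In all 1.71% of 6303 genes were lower than in each of the 3 others, of which 13 were mitochondrial genes, among 15 compared. *mt-Co3*, a cytochrome c oxidase subunit gene, was at 592 CPM in HPCs with a median of 232, and at 3779, 5293 and 3950 CPM in Endo, Mk and Mac. Without the highest cell of each its mean was 293 CPM in HPCs and 1673 CPM in Mac. A further 16 were named Gm with a number, among them *Gm13340*, *Gm13341*, *Gm29216*, *Gm28437* and *Gm7809*, and some such loci share reads with the mitochondrial genome, so their values are uncertain. When cells with over 10% mitochondrial counts were left out, 0 mitochondrial genes were below all 3 populations. Genes above all 3 made up 36.1% of those above or below, and 65.9% with cells scaled to their own totals.

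Among the 79 other genes *Tpm4*, a tropomyosin gene of the actin cytoskeleton, was the one named. It was found in 89.7% of HPCs with a median of 92.9 and a highest level of 992 CPM, and its mean of 149.5 CPM compared with 1241 in Endo, 1551 in Mk and 1106 in Mac. Medians were 1086 CPM in Endo and 1558 CPM in Mk. In Mac the median was 132.8 CPM and 1 cell reached 19975 CPM, so the Mac mean rested on few cells.

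The HPCs differed widely among themselves. The 10 genes with the widest spread among those found in 25% to 75% of HPCs were *Mn1*, *Gata1*, *Dab2*, *Lpl*, *Maf*, *Igsf6*, *Hp*, *Muc13*, *Ets1* and *Dhrs3*. *Mn1*, a transcriptional coactivator gene, was found in 66.7% with a median of 3.15 and a highest level of 2134 CPM, and *Dab2*, an endocytic adaptor gene, in 74.7% with a median of 1.68 and a highest level of 4886 CPM. *Lpl*, lipoprotein lipase, was found in 58.6% with a highest level of 3719 CPM. *Ets1* and *Dhrs3*, a retinal reductase gene, were found in 52.9% and 66.7% with medians of 0.67 and 8.05 CPM.

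Macrophage genes were concentrated in part of the cells. The sum of the 18 macrophage genes ran from 1.24 to 16029 CPM over HPCs with a median of 136.3 CPM, and 27 of 87 HPCs were at or above the lowest Mac (362 CPM). In the 8 HPCs with under 10 counts of *Kit* and of *Myb* the sum was 773 to 16029 CPM (median 3523), against a median of 118.3 CPM in the other 79 (1.24 to 7970), so the ranges overlapped. *Csf1r* was found in all 8, at a median of 298 CPM, and in 52 of the 79 at a median of 1.13 CPM. *Mpo* ran the other way, with a median of 3.13 CPM (1.44 to 546) in the 8 cells and 596 CPM (6.68 to 8420) in the 79, and *Gata1* was found in 2 of the 8 and 53 of the 79. These 8 cells were picked for their *Kit* and *Myb* counts after their values were seen.

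**Figure D5:**
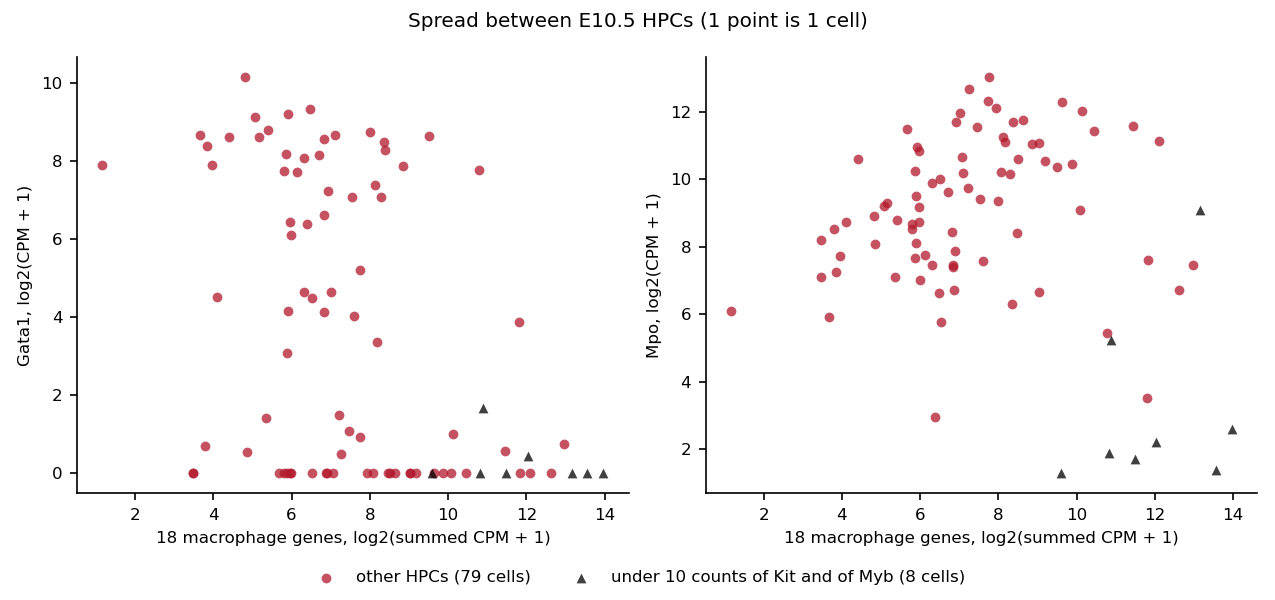
*Gata1* (left) and *Mpo* (right) against the summed CPM of 18 macrophage genes, both as log2(CPM + 1), in each of 87 HPCs. Triangles are the 8 cells with under 10 counts of *Kit* and of *Myb*, which lie to the right with *Mpo* under 10 CPM in most of them, while *Gata1* is at or near 0 in many cells at every macrophage sum.

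Counts of genes of different lineages were found in the same captures. *Mpo* and *Gata1* were found together in 55 HPCs (63.2%) and *Mpo* and *Csf1r* in 60 (69.0%). These are the shares of *Gata1* and of *Csf1r* themselves, since every HPC had at least 1 count of *Mpo*. *Gata1* and *Csf1r* were found together in 34 HPCs (39.1%, 28.8% to 50.1%), where the product of their single shares was 43.6%. At 10 counts or more of each the share was 12.6% (11 cells), and at 800000 counts per cell it was 25.7%. *Cpa3* was found with *Gata1* in 43.7% (product 39.2%) and with *Csf1r* in 40.2% (product 42.8%), *Gata1* with *Spi1* in 54.0% (product 54.5%), and *Pf4* with *Csf1r* in 36.8% (product 36.5%).

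Correlations of levels across the 87 HPCs are given as a description, from cells that share a capture, a lane and a range of depths. Spearman's rho was 0.81 between *Mpo* and *Prtn3*, 0.72 between *Gata1* and *Muc13*, 0.64 between *Maf* and *Dab2*, and 0.49 between *Gata1* and *Gfi1b*. It was -0.50 between *Gata1* and *Ptprc*, -0.39 between *Gata1* and *Csf1r* and -0.05 between *Mpo* and *Gata1*. Over the 79 cells left without the 8 the values were 0.79, 0.71, 0.55, 0.44, -0.54, -0.33 and -0.21 in the same order.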

How the data were processed

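The read counts were made by the authors. They sorted cells by population, captured them on the Fluidigm C1, made Nextera XT libraries, sequenced paired ends of 100 bases, used Rsubread for alignment to GRCm38 with Ensembl 84 genes and counted with featureCounts. Per the labels, Subread and featureCounts were used, with versions not given in the sources used here. The deposited signal values (CPM) were made by the authors from counts of 15967 genes after scater filtering, with scran size factors; their sums over a cell therefore differ (726152 to 1684862 in HPCs).

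Here populations came from the labels. Ratios used mean CPM + 1, with a fold of 2, a mean of 50 CPM and 25% of cells. No test was made, since no embryo is named. Shares have exact 95% intervals, and a share of 0 has 3 cells of the total as its limit. Named genes were the 6 markers, the 20 furthest above and 8 furthest below all 3 populations, 6 per comparison and direction (all in at least 50% of cells of the higher population), the 10 of widest spread, and the members of 19 gene lists. A few of these genes are not reported here. The members, markers and lists were chosen with earlier results of these data known. Thinning used 800000 counts. No doublet caller was run. Alternatives covered the pseudocount, filter, scaling, averaging, fold and depth, and 3 more were added after seeing the data: leaving out the HPC with endothelial genes, the 8 HPCs low in *Kit* and *Myb*, and cells with over 10% mitochondrial counts. All 311 named genes matched GENCODE M21, and promoters came from RefSeq (GRCm38.p6). *Tespa1* and *Serpinb1a* had no sequence entry. Python 3.11.15, numpy 2.4.6, pandas 2.3.3 and scipy 1.17.1 were used.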

Additional observations from a re-analysis of the deposited data

Results flagged for a closer look

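Of 296 genes in the lists 29 were outside the filtered table of the authors, and 16 of these had a count in at least 1 HPC of the unfiltered table. The 5 genes given here were found in more HPCs than the 3 cells (3.45%) that a count of 0 allows, in data that the comparisons did not use. *Afp*, the alpha-fetoprotein gene of visceral endoderm, was found in 10 HPCs (11.5%, 5.65% to 20.1%), against 0 Endo, 4 Mk and 0 Mac. *Rag2*, the recombinase gene of lymphocytes, was found in 7 HPCs (8.05%), *Ms4a2*, the IgE receptor beta chain gene of mast cells, in 6 (6.90%), and *Ltf*, the lactoferrin gene of neutrophil granules, in 4 (4.60%), and none of these 3 had a count in Endo, Mk or Mac. *Cebpe*, the late granulocyte factor gene, was found in 5 HPCs (5.75%, 1.89% to 12.9%) and in 2 Endo (3.28%).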

How the results depend on the processing

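No paired analysis was possible because no test was made and cell numbers are only names. Genes past the fold are given as percentages of the 15967 genes, as higher and lower against Endo, Mk, Mac and all 3 in turn. They were 6.43% and 10.04%, 2.22% and 4.23%, 5.89% and 8.12%, and 0.382% and 0.676%. With no filter they were 21.1% and 24.97%, 14.4% and 12.1%, 25.3% and 16.1%, and 2.74% and 1.25%. With logs averaged they were 19.9% and 5.23%, 9.43% and 2.89%, 17.4% and 2.26%, and 6.98% and 0.138%. With a fold of 4 they were 2.28% and 5.78%, 0.952% and 1.898%, 1.25% and 3.94%, and 0.0877% and 0.144%. On own totals of cells, 2.71% were lower than in Mk, 0.764% above and 0.395% below all 3, and the median ratio of all genes moved to 0.17, 0.21 and 0.19. Below all 3 were 0.388% with a pseudocount of 10 CPM and 0.376% without cells of over 10% mitochondrial counts (60 genes, 36 of them below all 3 before). At 10 counts or more the average share of HPCs was 77.0% for progenitor factors, 28.7% for mast, 23.6% for macrophage and 19.3% for endothelial genes. The shares with 2 genes were then 49.4% for *Mpo* and *Gata1*, 37.9% for *Mpo* and *Csf1r*, 12.6% for *Gata1* and *Csf1r* (with or without *Mpo*), 18.4% for *Gata1* and *Spi1*, 11.5% for *Cpa3* and *Csf1r*, 32.2% for *Cpa3* and *Gata1* and 14.9% for *Pf4* and *Csf1r*. Thinned, *Gata1* and *Csf1r* came to 25.7% and *Cpa3* and *Csf1r* to 28.4%.

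With logs averaged, ratios against Mac turned positive for *Birc5* (0.50), *Cdc45* (2.48), *Fen1* (1.54), *Gm7809* (0.12), *Il3ra* (0.00054), *Mcm2* (0.95), *Mki67* (0.029), *Mybbp1a* (0.52), *Nusap1* (1.45), *Pes1* (0.61), *Plk1* (2.05), *Ptpn7* (0.80), *Rrp9* (2.34), *Ung* (0.71) and *Wdr12* (1.25), against Mk for *Csf2rb* (3.00), *Hbb-bt* (0.22) and *Nuak2* (0.26), and against Endo for *Gp1ba* (0.34). On own totals *Csf2rb* against Mk turned (0.50). Without cells of over 10% mitochondrial counts ratios turned against Mk for *Acta2* (0.050), *Csf2rb* (2.12), *Il6st* (0.40), *Nuak2* (1.25) and *Plvap* (0.13), and against Mac for *Cd14* (0.33) and *Il3ra* (0.53). Of the 933 ratios checked none reversed with a pseudocount of 10 CPM, without shallow cells, without the HPC with endothelial genes or without the 8 HPCs. The cause of these changes was not tested. Each population is 1 capture in 1 lane, and the 25 Mac limit every value against them.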

Other observations

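Genes of the mast and early lymphoid lists that lay outside the filtered table were seen in few HPCs. *Fcer1a*, the IgE receptor alpha chain gene, was found in 3 HPCs and *Igll1*, a surrogate light chain gene of pre-B cells, in 2, each in 0 Endo, 0 Mk and 0 Mac. *Camp*, a neutrophil granule gene, was found in 2 HPCs. *Ctsg*, *Gzmb*, *Cma1*, *Dntt* and *Cd3e* had no count in any of the 87 HPCs, which allows a share of up to 3.45% for each, taking 3 cells as the limit.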
